A study of Homo sapiens with 16 samples.

Results

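The antiviral PARP and APOL genes described here are PARP9, PARP10, PARP12 and PARP14, the PARP9 partner DTX3L, and APOL1, APOL2, APOL3 and APOL6. They were taken by gene name, and each of the 9 names matched 1 of the 60612 genes in the count table. All 9 passed the filter on low counts, which kept 17950 genes for testing. RNA was sequenced from NCI-H1944, a human lung adenocarcinoma cell line, in 4 genotypes: a control labelled SCR and wild type, a STING knockout, a MAVS knockout and a STING/MAVS knockout (DKO). Each was given either the MPS1 inhibitor BAY-1217389 (MPS1i, 100 nM) or DMSO for 48 h, and cells were kept for a further 24 h after removal of the drug. Each of the 8 groups has 2 libraries, which makes 16. STING relays detection of DNA in the cytosol, MAVS relays detection of RNA in the cytosol, and MPS1 (gene TTK) is the spindle checkpoint kinase. The series asks which expression changes after the drug pulse depend on either relay. The labels do not say whether the 2 libraries of a group came from separate cultures or whether a knockout line is 1 clone, so the p-values measure only the spread between these libraries.

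Enzymes of the PARP family transfer ADP-ribose from NAD+ to proteins. PARP10, PARP12 and PARP14 attach single ADP-ribose units, and PARP9 acts with DTX3L, an E3 ubiquitin ligase of the deltex family. The APOL proteins are related to APOL1, the channel-forming protein of human serum that kills trypanosomes. Many genes of both families are induced by interferon: type I interferon activates the transcription factor complex ISGF3, which binds the interferon-stimulated response element (ISRE), and interferon gamma acts on genes with the gamma-activated site (GAS).

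The promoter windows of DTX3L, PARP9, PARP14 and PARP12 are shown first. These are the members for which a RefSeq window was matched by symbol, and all 4 windows shown hold the letters of an ISRE. The windows run from 250 bases before to 50 bases after the RefSeq transcription start, on GRCh38.p14, written 5′ to 3′ on the gene's strand. Capitals mark GAAANNGAAA, read on either strand.
DTX3L chr3:122564088-122564387 (plus strand): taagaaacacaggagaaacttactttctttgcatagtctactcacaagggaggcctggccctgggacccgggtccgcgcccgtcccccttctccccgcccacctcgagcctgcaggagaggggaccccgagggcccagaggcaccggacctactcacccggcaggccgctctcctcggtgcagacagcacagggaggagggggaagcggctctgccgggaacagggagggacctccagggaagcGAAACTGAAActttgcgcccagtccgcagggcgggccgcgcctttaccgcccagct
PARP9 chr3:122564251-122564550 (minus strand): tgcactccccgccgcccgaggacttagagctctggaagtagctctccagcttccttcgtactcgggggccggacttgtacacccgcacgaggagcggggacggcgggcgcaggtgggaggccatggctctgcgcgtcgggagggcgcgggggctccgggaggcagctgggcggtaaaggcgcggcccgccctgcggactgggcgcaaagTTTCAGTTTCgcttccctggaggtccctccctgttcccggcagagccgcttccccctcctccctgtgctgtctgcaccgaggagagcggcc
PARP14 chr3:122680589-122680888 (plus strand): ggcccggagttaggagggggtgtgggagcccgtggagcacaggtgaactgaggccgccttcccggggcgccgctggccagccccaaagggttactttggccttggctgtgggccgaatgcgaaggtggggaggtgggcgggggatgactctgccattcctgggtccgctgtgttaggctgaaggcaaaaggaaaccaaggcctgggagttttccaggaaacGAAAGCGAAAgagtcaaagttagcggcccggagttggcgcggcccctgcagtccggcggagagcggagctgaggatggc
PARP12 chr7:140062902-140063201 (minus strand): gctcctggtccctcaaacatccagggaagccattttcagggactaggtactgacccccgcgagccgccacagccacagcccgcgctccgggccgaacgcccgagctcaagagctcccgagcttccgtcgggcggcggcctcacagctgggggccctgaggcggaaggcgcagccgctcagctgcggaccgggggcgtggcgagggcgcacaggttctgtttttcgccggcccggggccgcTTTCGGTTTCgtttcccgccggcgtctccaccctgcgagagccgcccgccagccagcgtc

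DTX3L and PARP9 are transcribed away from each other, their windows share 137 bases, and the capitals mark the same match in both: GAAACTGAAA at chr3:122564332-122564341. Read on the DTX3L strand, the match begins at base 122564332, position -6 from the DTX3L start. Read on the PARP9 strand, it begins at its other end, base 122564341, position -41 from the PARP9 start of this window. PARP14 holds GAAAGCGAAA with its first base at position -29, and PARP12 holds the match as TTTCGGTTTC at position -10. A second, upstream RefSeq start of PARP9 has a window with 0 matches. The GAS letters TTCNNNGAA occurred in 1 of the 4 genes, in PARP14, as TTCCAGGAA at position -40, next to but not overlapping its ISRE match. Among all 35116 windows of this length, 3.57% held the ISRE letters and 7.66% the GAS letters. These shares are per window, while a gene is counted when any of its windows holds the letters. The RefSeq windows matched these 4 of the 9 members by symbol, and not PARP10, APOL1, APOL2, APOL3 or APOL6. A match of letters is a description of the window and not evidence of binding.

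PARP9 (ENSG00000138496, chromosome 3, 122527924 to 122564577, minus strand), DTX3L (ENSG00000163840, 122564338 to 122575203, plus strand) and PARP14 (ENSG00000173193, 122680839 to 122730840, plus strand) lie in 1 stretch of chromosome 3, on GRCh38 as the table gives it. PARP12 (ENSG00000059378) spans 140023749 to 140062951 on chromosome 7, and PARP10 (ENSG00000178685) spans 143977153 to 144012772 on chromosome 8, both on the minus strand. The 4 APOL members lie on chromosome 22: APOL6 (ENSG00000221963) at 35648446 to 35668404 and APOL1 (ENSG00000100342) at 36253071 to 36267530 on the plus strand, APOL3 (ENSG00000128284) at 36140330 to 36166177 and APOL2 (ENSG00000128335) at 36226209 to 36239954 on the minus strand. PARP9 and DTX3L overlap by 240 bases on opposite strands. PARP10 overlaps GRINA by 3360 bases on the opposite strand, and GRINA had 1265 to 4859 counts per library. The strand setting of the counting is not given in the sources used here, so reads in these overlaps cannot be assigned with certainty. The APOL genes are related copies that may share reads.

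Library totals ran from 19893784 to 49769938 counts, and levels are given as CPM, which sets all libraries to 1 total after scaling by the trimmed mean of M-values (TMM). The STING transcript (gene STING1) was lower in the STING-labelled line than in SCR, at 3.74 against 8.27 CPM under DMSO and 5.94 against 29 CPM under MPS1i. It was also lower in the DKO line, at 4.86 and 4.12 CPM. STING1 itself rose after MPS1i in SCR (log2 1.81, adjusted p = 5.66e-15). Under MPS1i it was also lower than in SCR in the MAVS-labelled line, at 18.6 CPM (log2 -0.64, adjusted p = 3.33e-06). Under DMSO it was not lower there, at 10.4 CPM. Since its level moved with the drug and in another line, it does not by itself check the STING labels. The MAVS transcript did not check the MAVS labels: it was at 195 CPM in the MAVS-labelled line and 186 CPM in SCR under DMSO (log2 0.07, adjusted p = 0.436). Under MPS1i it was higher in the MAVS-labelled line than in SCR (log2 0.34, adjusted p = 4.87e-06). In the DKO line it was higher than in SCR under DMSO (log2 0.20, adjusted p = 0.000894) and under MPS1i (log2 0.66, adjusted p = 6.78e-12). The MAVS part of the DKO label is thus also unchecked here. A guide can disrupt a protein without lowering its RNA. The lines are therefore called by their labels. The epithelial keratins KRT8 (1474 to 2303 CPM) and KRT18 (810 to 1136 CPM) were abundant in all libraries, and KRT7 and CDH1 were present at lower levels. EPCAM was low (2.18 to 5.69 CPM), and the epithelial keratin KRT19 and the lung markers NKX2-1, SFTPB and NAPSA were at or near 0. The summed level of 6 immune markers was 0.205 to 0.863 CPM in DMSO libraries and 0.784 to 1.81 CPM in MPS1i libraries. The summed level of 5 stromal and endothelial markers was 15.1 to 28.3 CPM in DMSO libraries and 24.0 to 35.0 CPM in MPS1i libraries; it was higher after MPS1i in every line, the DKO line included, and the part of these markers in the results was not tested. In bulk RNA, more cells expressing a gene and more RNA per cell cannot be told apart.

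The first question was which members responded to the MPS1i pulse in each line. In SCR, all 9 rose, by log2 1.83 (APOL6) to 5.14 (APOL3), against 26.0% of all tested genes that rose. All 9 also rose in the STING-labelled line (background 15.5%) and in the MAVS-labelled line (background 17.1%). In the DKO line 3 of 9 passed the test, PARP12 upward (background 6.53%) and PARP14 and APOL6 downward (background 8.22%), each by at most log2 0.32. The median log2 change over the members was 2.49 in SCR, 2.32 in STING, 1.65 in MAVS and 0.06 in DKO, where the median over all tested genes was 0.03, 0.00, 0.02 and 0.00. Calls are those of edgeR's quasi-likelihood test at an adjusted p under 0.05, with Benjamini-Hochberg adjustment over the 17950 genes. The 2 SCR MPS1i libraries lay above the 14 others for each member.

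**Figure D1:**
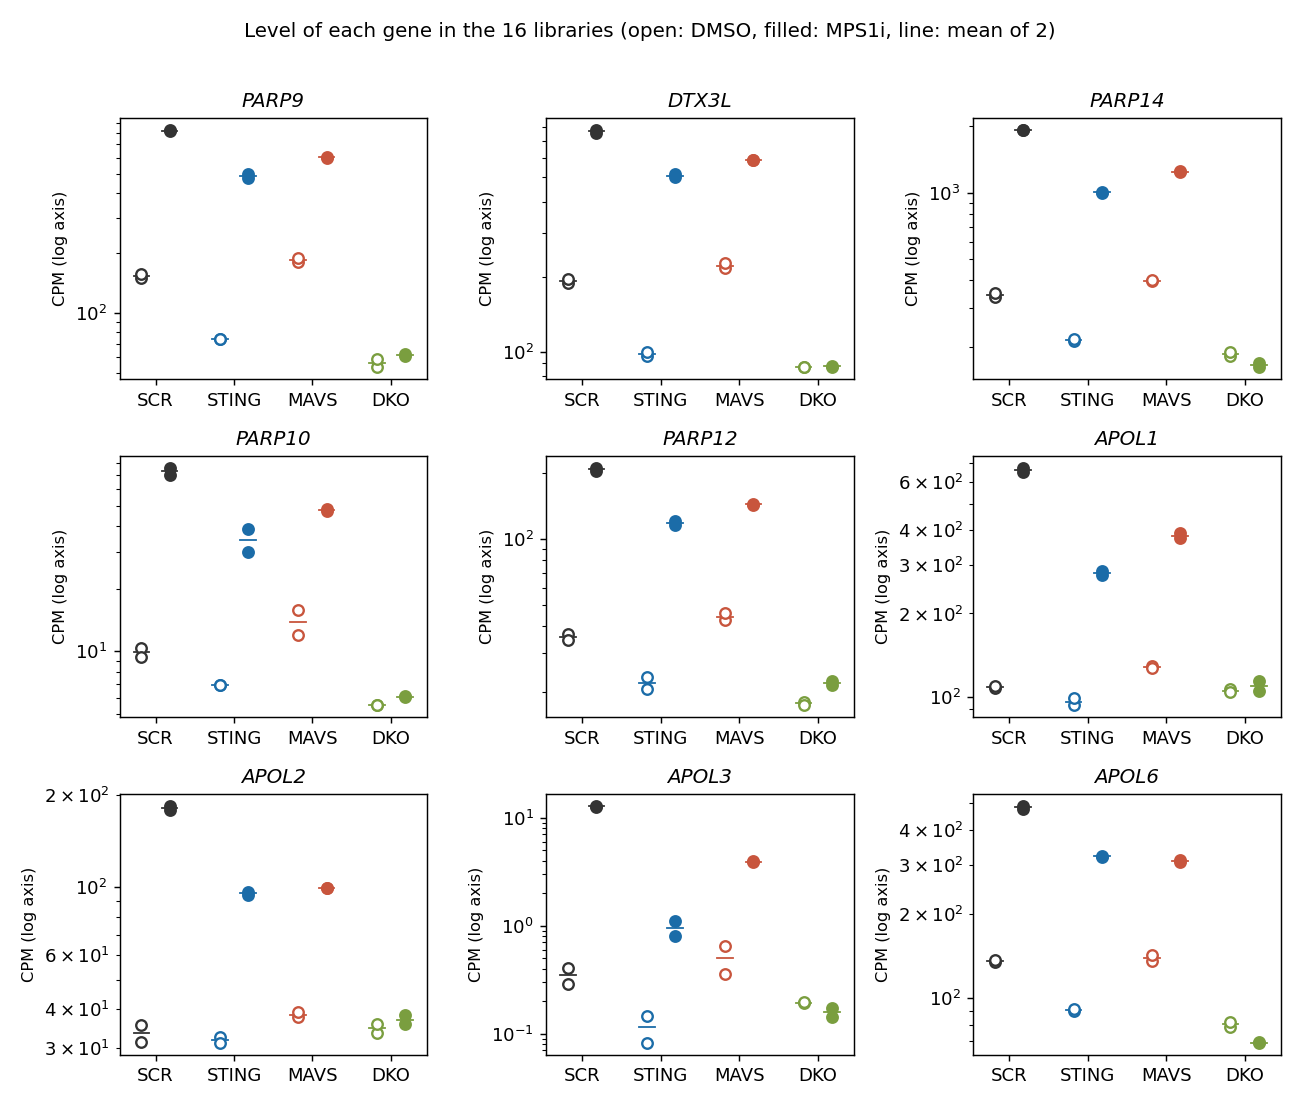
Level of each of the 9 genes in CPM (log axis) in each of the 16 libraries, by genotype and treatment; each point is 1 library. The SCR MPS1i libraries are the highest in every panel, and the DKO libraries lie close together whether or not MPS1i was given.

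PARP9, a macrodomain protein, and its partner, the ubiquitin ligase DTX3L, had nearly the same pattern. PARP9 was at 149 and 157 CPM in SCR under DMSO and at 815 and 828 CPM after MPS1i, a 5.37-fold rise (log2 2.42 ± 0.05, standard error). In the STING-labelled line PARP9 went from 73.8 CPM in both libraries to 497 and 476 CPM, and in the MAVS-labelled line from 180 and 189 CPM to 599 and 608 CPM. In the DKO line PARP9 was at 53.3 and 58.5 CPM under DMSO and at 62.2 and 60.9 CPM after MPS1i. The DMSO and MPS1i libraries were far apart in SCR, STING and MAVS, and differed little in DKO, where the change did not pass the test (log2 0.14 ± 0.05, adjusted p = 0.0907; without DKO DMSO replicate 2 it did, at log2 0.20 and adjusted p = 0.0191).

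DTX3L was at 188 and 196 CPM in SCR under DMSO and at 753 and 775 CPM after MPS1i, a 3.99-fold rise. It went from 96 and 99.7 CPM to 516 and 502 CPM in the STING-labelled line and from 216 and 226 CPM to 589 and 588 CPM in the MAVS-labelled line. The 4 DKO libraries held 86.7, 86.8, 87.1 and 87.6 CPM, the first pair under DMSO. This was the smallest log2 change of the 9 members in DKO (0.01 ± 0.05, adjusted p = 0.93).

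PARP14, a large mono-ADP-ribosyltransferase with macrodomains that read ADP-ribose, was at 337 and 350 CPM in SCR under DMSO and averaged 1926 CPM after MPS1i (5.60-fold). Its group means went from 214 to 1002 CPM in the STING-labelled line and from 398 to 1247 CPM in the MAVS-labelled line. Under DKO the direction was the opposite: 181 and 190 CPM under DMSO, 161 and 169 CPM after MPS1i, a fall of 0.17 ± 0.04 on the log2 scale (adjusted p = 0.00897). In a fit on the DKO libraries alone this fall was not called. The libraries did not overlap, but the call was lost without DKO MPS1i replicate 1 (adjusted p = 0.136) or without DKO DMSO replicate 2 (adjusted p = 0.0594).

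PARP10, a mono-ADP-ribosyltransferase, rose 7.36-fold in SCR, from 10.4 and 9.40 CPM to 76.1 and 70.1 CPM. In the STING-labelled line it went from 6.86 and 6.91 CPM to 30.1 and 38.6 CPM, and in the MAVS-labelled line from 15.9 and 11.9 CPM to 47.2 and 48.1 CPM. The 4 DKO libraries ran from 5.52 to 6.07 CPM. Relative to the group mean, replicates of PARP10 spread more than those of the other PARP members in STING MPS1i and in MAVS DMSO.

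PARP12, a zinc-finger mono-ADP-ribosyltransferase known to restrict alphaviruses, went from 36.7 and 34.6 CPM to 212 and 206 CPM in SCR (5.85-fold). It went from 23.3 and 20.6 CPM to 121 and 117 CPM in the STING-labelled line, and from 42.6 and 45.9 CPM to 144 and 146 CPM in the MAVS-labelled line. PARP12 was the 1 member that rose in the DKO line, from 18.1 and 17.4 CPM to 22.5 and 21.5 CPM (log2 0.32 ± 0.07, adjusted p = 0.00255). In a fit on the DKO libraries alone this rise was not called. That rise did not pass the test without DKO MPS1i replicate 1 (log2 0.27, adjusted p = 0.0691).

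APOL1, secreted with high-density lipoprotein and also kept inside cells, was at 107 and 109 CPM in SCR under DMSO and at 651 and 675 CPM after MPS1i (6.13-fold). It went from 93.2 and 98.5 CPM to 284 and 275 CPM in the STING-labelled line, and from 129 and 127 CPM to 391 and 374 CPM in the MAVS-labelled line. The DKO libraries held 107 and 104 CPM under DMSO and 114 and 104 CPM after MPS1i. The DMSO libraries of SCR, STING and DKO thus all lay between 93.2 and 109 CPM.

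APOL2, an intracellular relative of APOL1, went from 35.6 and 31.3 CPM to 185 and 178 CPM in SCR (5.40-fold). Its means went from 31.8 to 95.5 CPM in the STING-labelled line and from 38.4 to 99.6 CPM in the MAVS-labelled line. The 4 DKO libraries ran from 33.3 to 38.2 CPM, and those with MPS1i overlapped those without it.

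APOL3, which can disrupt the membranes of bacteria in the cytosol, was the least abundant member. It had 20 and 10 counts in SCR under DMSO and 460 and 549 after MPS1i (0.405 and 0.289 against 12.9 and 12.5 CPM). Both STING DMSO libraries were at or under 3 counts (2 and 3), against 29 and 23 after MPS1i. The ratio of the summed counts, scaled for depth, was 35.5 in SCR (95% counting interval 24.7 to 52.9), 8.47 in STING (3.41 to 27.2), 7.42 in MAVS (4.92 to 11.7) and 0.839 in DKO (0.312 to 2.17), by the exact binomial method and for counting error alone. The SCR interval lay above that of the MAVS-labelled line and overlapped the upper end of that of the STING-labelled line.

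APOL6, which carries a BH3-like stretch and can promote cell death, went from 134 and 137 CPM to 475 and 491 CPM in SCR (3.56-fold). It rose from 89.7 and 91.3 to 324 and 322 CPM in the STING-labelled line and from 136 and 143 to 309 and 314 CPM in the MAVS-labelled line. In the DKO line it fell from 78.5 and 82.2 CPM to 69.3 and 69.0 CPM (by 0.22 ± 0.05 on the log2 scale, adjusted p = 0.00219), and this call held in every setting tried.

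**Figure D2:**
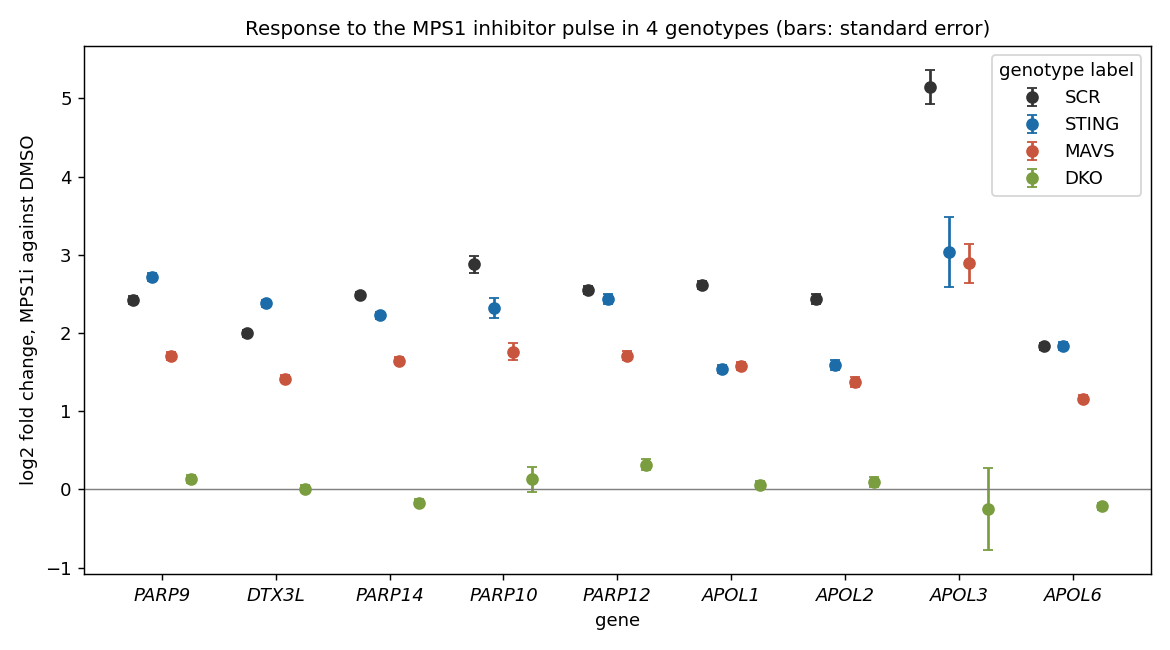
Log2 change after MPS1i for each of the 9 genes in the SCR, STING, MAVS and DKO lines; points are edgeR estimates and bars their standard errors. In DKO all 9 lie near 0, between -0.25 and 0.32.

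The second question was whether the response itself differed between lines, tested as a difference of log2 changes. These differences share the SCR, STING, MAVS and DKO libraries between them. In the DKO line all 9 responses were smaller than in SCR, by log2 1.99 to 5.39 (background of smaller responses 14.5%), than in STING (background 3.17%) and than in MAVS (background 6.41%). In the MAVS-labelled line all 9 were smaller than in SCR (background 4.52%), from -0.58 ± 0.06 for DTX3L to -2.25 ± 0.40 for APOL3. The APOL3 value was lost without MAVS DMSO replicate 1 (log2 -1.70, adjusted p = 0.178), and the APOL3 difference between DKO and STING without STING DMSO replicate 1 (log2 -2.91, adjusted p = 0.0632).

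In the STING-labelled line the members split. The responses of PARP9 and DTX3L were larger than in SCR, by 0.30 ± 0.07 (adjusted p = 0.00261) and 0.38 ± 0.06 (adjusted p = 5.28e-05), 2 members against a background of 9.97%. Those of APOL1 (-1.07 ± 0.07), APOL2 (-0.85 ± 0.09), PARP10 (-0.56 ± 0.17) and PARP14 (-0.26 ± 0.06) were smaller, 4 members against 9.55%. PARP12 (-0.12 ± 0.08, adjusted p = 0.366), APOL3 (-2.10 ± 0.72, adjusted p = 0.0662) and APOL6 (0.00 ± 0.06, adjusted p = 0.976) did not pass. The PARP10 call is the weak one: it was lost without any 1 of 8 libraries, for example at log2 -0.39 and adjusted p = 0.0976 without STING MPS1i replicate 1. PARP9 and DTX3L had lower DMSO levels in STING than in SCR, and their MPS1i levels in STING were also below those in SCR.

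Set against each other, the STING-labelled line responded more than the MAVS-labelled line for 5 members (background 1.96%): PARP9 by 1.01 ± 0.07, DTX3L by 0.96 ± 0.06, PARP12 by 0.72 ± 0.09, APOL6 by 0.68 ± 0.06 and PARP14 by 0.58 ± 0.06. For APOL1 the difference was -0.03 ± 0.07 (adjusted p = 0.863), for APOL2 0.21 ± 0.09 and for APOL3 0.15 ± 0.51. PARP10 stood at 0.56 ± 0.17 (adjusted p = 0.078) and passed without STING MPS1i replicate 1 (log2 0.73, adjusted p = 0.00898) or MAVS DMSO replicate 2 (log2 0.74, adjusted p = 0.0116).

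The DKO response was then compared with the one that the changes in log2 response in the 2 single knockouts give when added. The difference from that sum was negative and passed the test for 7 members, where 0.713% of all genes did so: PARP9 (-1.87 ± 0.10), DTX3L (-1.79 ± 0.09), PARP14 (-1.56 ± 0.08), APOL6 (-1.38 ± 0.09), PARP12 (-1.28 ± 0.12), PARP10 (-1.07 ± 0.26) and APOL1 (-0.45 ± 0.10). In these genes the DKO response was smaller than the sum of both single changes gives. APOL2 (-0.44 ± 0.13, adjusted p = 0.115) and APOL3 (-1.04 ± 0.83, adjusted p = 0.827) did not pass. The PARP10 call (adjusted p = 0.0488) was lost without any 1 of 13 libraries and with the replicate number as a block (adjusted p = 0.0679). That of APOL1 (adjusted p = 0.0166) was lost without 1 of 5 libraries, the highest adjusted p being 0.0936 without STING DMSO replicate 1. APOL2 passed without SCR DMSO replicate 2 (adjusted p = 0.0318) or DKO DMSO replicate 1 (adjusted p = 0.03).

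The third question was the level without the drug. Under DMSO 7 members were lower in the STING-labelled line than in SCR (background 5.47%), most for PARP9 (-1.05 ± 0.05) and DTX3L (-0.97 ± 0.05), then PARP12 (-0.70 ± 0.07), PARP14 (-0.68 ± 0.04), APOL6 (-0.58 ± 0.05), PARP10 (-0.53 ± 0.14) and APOL1 (-0.18 ± 0.05). APOL2 (-0.08 ± 0.07) did not pass, nor did APOL3, which had 5 counts in the STING libraries together against 30 in SCR (adjusted p = 0.0556; 0.0415 without DKO DMSO replicate 1 and 0.0434 without DKO DMSO replicate 2). The small calls for PARP10 and APOL1 each depended on single libraries: without STING DMSO replicate 1 the adjusted p was 0.158 and 0.296. PARP10 also failed without SCR DMSO replicate 1 (0.135) or STING DMSO replicate 2 (0.132), and APOL1 without SCR DMSO replicate 2 (0.0882), SCR MPS1i replicate 2 (0.052) or STING DMSO replicate 2 (0.0728).

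In the DKO line under DMSO 6 members were lower than in SCR (background 15.3%): PARP9 (-1.45 ± 0.05), DTX3L (-1.14 ± 0.04), PARP12 (-1.01 ± 0.06), PARP14 (-0.89 ± 0.04), PARP10 (-0.84 ± 0.14) and APOL6 (-0.76 ± 0.05). APOL1 (-0.04 ± 0.05), APOL2 (0.05 ± 0.06) and APOL3 (-0.87 ± 0.41, adjusted p = 0.145) did not pass. The 5 PARP and DTX3L members and APOL6 were lower without the drug, while APOL1 and APOL2 stood within 0.05 of SCR on the log2 scale. In the MAVS-labelled line 6 members were higher than in SCR under DMSO (background 3.98%), by at most 0.50 ± 0.12 for PARP10, with PARP12 at 0.31 ± 0.06, PARP9 at 0.27 ± 0.05, APOL1 at 0.24 ± 0.05, PARP14 at 0.21 ± 0.04 and DTX3L at 0.20 ± 0.04. Of these, PARP9 and PARP14 held without any single library. PARP10 was lost without MAVS DMSO replicate 1 (log2 0.27, adjusted p = 0.456), SCR DMSO replicate 1 (0.0521) or SCR DMSO replicate 2 (0.164), DTX3L without SCR DMSO replicate 1 (0.0612) or MAVS DMSO replicate 2 (0.0565), PARP12 without SCR DMSO replicate 2 (0.0523) and APOL1 without MAVS DMSO replicate 1 (0.0599). APOL2 (0.19 ± 0.06, adjusted p = 0.0795) passed without SCR DMSO replicate 1 (0.0249).

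Among the knockout-labelled lines under DMSO, all 9 members were lower in STING than in MAVS (background 2.15%), 8 were lower in DKO than in MAVS (background 8.21%, all but APOL2) and 5 were lower in DKO than in STING (background 7.81%). The last 5 were PARP9 (-0.40 ± 0.05), PARP12 (-0.31 ± 0.07), PARP14 (-0.21 ± 0.04), DTX3L (-0.17 ± 0.05) and APOL6 (-0.17 ± 0.05). PARP12 was lost without STING DMSO replicate 1 (adjusted p = 0.121), DTX3L without STING DMSO replicate 2 (0.0857), and APOL6 without STING DMSO replicate 1 (0.054), STING DMSO replicate 2 (0.0717) or DKO DMSO replicate 1 (0.09). Against MAVS, the calls for APOL2 in STING and for APOL3 in STING and DKO were lost without 1 library, the highest adjusted p being 0.239 for APOL2 without STING DMSO replicate 2, and for APOL3 0.378 in STING and 0.512 in DKO, both without MAVS DMSO replicate 1.

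**Figure D3:**
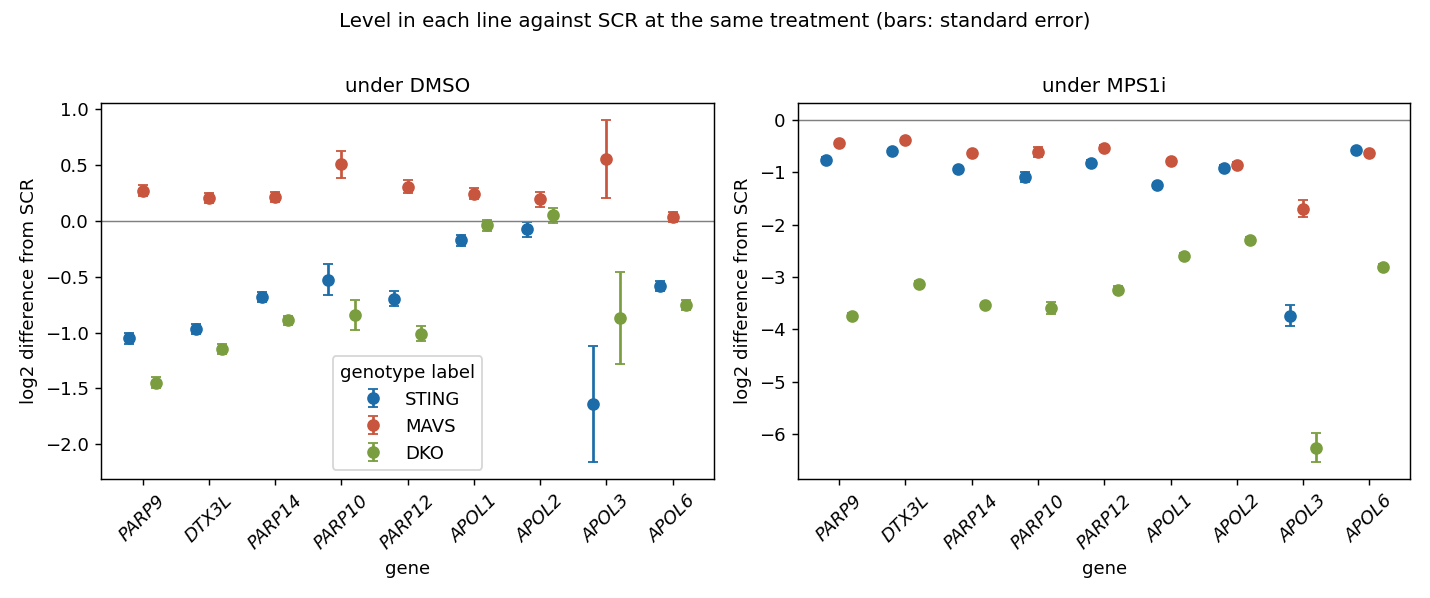
Log2 difference of the STING-labelled, MAVS-labelled and DKO lines from SCR for each of the 9 genes, under DMSO and under MPS1i; points are edgeR estimates and bars their standard errors. Under DMSO the MAVS points lie at or above 0 and most STING and DKO points below it, and under MPS1i all lie below 0.

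After MPS1i all 9 members were lower than in SCR in the STING-labelled line (background 17.3%), in the MAVS-labelled line (background 8.47%) and in the DKO line (background 22.4%). The DKO differences ran from -2.29 ± 0.06 for APOL2 to -6.26 ± 0.27 for APOL3, with PARP9 at -3.74 ± 0.05 (13.3-fold lower). In STING they ran from -0.58 ± 0.04 for APOL6 to -3.74 ± 0.20 for APOL3, and in MAVS from -0.38 ± 0.04 for DTX3L to -1.70 ± 0.16 for APOL3. The DKO line was lower than STING (background 7.69%) and than MAVS (background 14.2%) for all 9. STING was lower than MAVS for 7 (background 5.83%), while APOL2 (-0.06 ± 0.06, adjusted p = 0.591) and APOL6 (0.05 ± 0.04, adjusted p = 0.506) did not pass. The PARP10 difference between STING and MAVS (-0.47 ± 0.10) was lost without STING MPS1i replicate 1 (log2 -0.30, adjusted p = 0.0868).

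Ordered by level, SCR MPS1i came first for all 9 members. For 8 members MAVS MPS1i was next, followed by STING MPS1i. For APOL6 the places were exchanged (323 CPM in STING and 311 CPM in MAVS). The 2 groups did not differ for APOL6 or for APOL2 (adjusted p = 0.506 and 0.591). MAVS DMSO was the highest DMSO group by mean, but did not differ from SCR DMSO for APOL2, APOL3 and APOL6 (adjusted p = 0.0795, 0.456 and 0.723). For PARP14 every neighbour in the order differed. For PARP9 and DTX3L the 1 pair of neighbours that did not differ was DKO with and without MPS1i, and for PARP12 it was DKO MPS1i and STING DMSO. For APOL2 5 of 7 neighbouring pairs did not differ, among them all pairs from MAVS DMSO down, and for APOL3 the same number did not. The highest mean was 14.7 times the lowest for PARP9, 13.2 for PARP10, 11.8 for PARP12, 11.7 for PARP14, 8.81 for DTX3L, 6.99 for APOL6, 6.92 for APOL1 and 5.70 for APOL2.

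Ratios between genes lying in the same stretch of a chromosome were compared, as a ratio within a library needs no scaling between libraries. PARP9 and PARP14 are not direct neighbours, since DTX3L lies between them. The PARP9 to DTX3L count ratio was 0.615 to 0.837 in the 8 DMSO libraries and 0.696 to 1.08 in the 8 MPS1i libraries. Within each line both MPS1i libraries lay above both DMSO libraries, also in DKO, where the ratio went from 0.615 and 0.675 to 0.714 and 0.696. The mean log2 change over the 4 lines was 0.30, or 1.23-fold (exact permutation test within lines, two-sided, p = 0.00154, the smallest value its 1296 assignments allow; adjusted p = 0.00463 over the 3 ratios tested). It was 0.43 in SCR, 0.34 in STING, 0.30 in MAVS and 0.13 in DKO. The PARP14 to PARP9 ratio fell by 0.20 on the log2 scale (p = 0.0293, adjusted p = 0.044, same exact test). That fall was in STING (-0.49) and DKO (-0.31), against 0.06 in SCR and -0.06 in MAVS, and with the replicate numbers as pairs its p was 0.0703 by exact sign flips. The APOL1 to APOL2 ratio changed by 0.07 (p = 0.174, same exact test). Reads in the 240 bases that PARP9 and DTX3L share can enter either count.

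**Figure D4:**
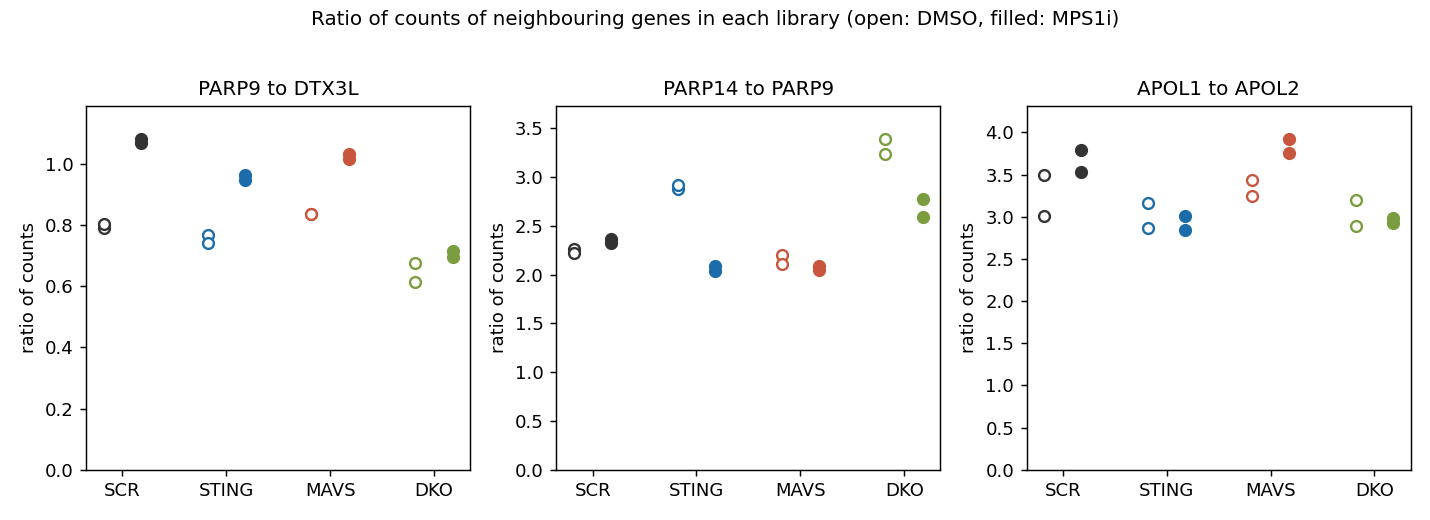
Count ratios PARP9 to DTX3L, PARP14 to PARP9 and APOL1 to APOL2 in each of the 16 libraries (linear axes from 0), by line and treatment; each point is 1 library. The PARP9 to DTX3L ratio is higher after MPS1i in all 4 lines.

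Per kilobase of annotated exon (GENCODE v29, all exons of a gene merged), the levels in SCR under DMSO were 32.8 CPM for PARP14, 32.7 for DTX3L, 30.8 for APOL1, 17.1 for PARP9, 13.4 for APOL6, 9.60 for APOL2, 5.67 for PARP12, 1.64 for PARP10 and 0.0589 for APOL3. After MPS1i the same measure was 188 CPM per kilobase for APOL1, 184 for PARP14, 130 for DTX3L, 91.9 for PARP9, 52.0 for APOL2, 47.7 for APOL6, 33.3 for PARP12, 12.1 for PARP10 and 2.16 for APOL3. APOL1 and PARP14 were thus the most abundant of the 9 per length after the pulse in SCR, and APOL3 remained the least abundant.

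The genes with the most similar pattern were found by Pearson's r of log2 CPM over the 16 libraries, among the 13874 genes whose mean level reached 1 CPM. For PARP9 and for DTX3L they included IFIT5 and ADAR (r 0.998 to 0.999). For PARP14 they were TRANK1, SAMD9L and SAMHD1, for PARP10 STAT2, LAP3 and SAMD9L, and for PARP12 SP110, CMPK2 and OAS1. For APOL1 they were TRIM5, TAP1 and TNFSF10, for APOL2 MYD88, IRF1 and PML, for APOL3 B2M, BTN3A1 and PDLIM1, and for APOL6 IFI16, TRANK1 and SAMD9L. The values for the genes named lay between 0.986 and 0.999, and the genes share the same 8 groups and libraries. Between members, r was 0.984 to 0.999 over the 10 pairs of PARP members and DTX3L, 0.923 to 0.992 over the 6 APOL pairs and 0.914 to 0.996 over the 20 mixed pairs.

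The other PARP genes that were tested rose less than the members after MPS1i in SCR, STING and MAVS. Of 13, PARP15 was not tested, and of the 12 others 7 rose and 2 fell in SCR after MPS1i, with a median log2 change of 0.23. The smallest adjusted p was that of ZC3HAV1 (the zinc-finger antiviral protein), whose log2 change was 1.43 ± 0.05 in SCR, 0.97 ± 0.05 in STING, 1.03 ± 0.05 in MAVS and 0.14 ± 0.05 in DKO. TIPARP rose by 0.98 ± 0.06 and PARP6 by 0.74 ± 0.06 in SCR. In the STING-labelled line 4 rose and 1 fell, in MAVS 3 and 2, and in DKO 2 and 3. Of all tested genes, 24.0% fell in SCR, 13.9% in STING, 16.3% in MAVS and 8.22% in DKO, beside the shares that rose given above. PARP15, which lies between DTX3L and PARP14, had 13 and 11 counts in SCR MPS1i, 7 and 5 in STING MPS1i, 6 and 6 in MAVS MPS1i, 1 in a MAVS DMSO library and 0 in all the others, the 4 DKO libraries included.

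Of 7 other APOL and deltex genes, 5 were tested and 2 rose in SCR (DTX1 by 1.27 ± 0.27, DTX2 by 0.56 ± 0.09) and 1 fell (APOLD1 by 0.36 on the log2 scale). APOL5 had 0 counts in all libraries. APOL4 had 3 and 1 counts in SCR DMSO and 16 and 14 in SCR MPS1i. It went from 4 and 3 to 7 and 7 counts in STING and from 3 and 1 to 6 and 11 in MAVS. In DKO it had 0 and 2 counts under DMSO and 2 and 0 after MPS1i. Of 9 genes that remove or read ADP-ribose, 1 rose in SCR (ADPRS, an ADP-ribose hydrolase, by 1.29 ± 0.15) and 3 fell, among them OARD1 (-0.55 ± 0.10) and NUDT5 (-0.48 ± 0.06). None of the 9 passed in DKO, where 6.53% of all tested genes rose and 8.22% fell. In SCR these shares were 26.0% and 24.0%. The median log2 change in SCR was -0.05 and -0.09 over the tested genes of these lists.

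Of 15 interferon receptor and ISGF3 signalling genes, 13 rose and 1 fell in SCR, 9 rose in STING, 10 rose in MAVS, and 4 rose and 1 fell in DKO. Among all tested genes, 26.0% rose and 24.0% fell in SCR, 15.5% rose in STING and 17.1% rose in MAVS. In DKO, 6.53% rose and 8.22% fell. STAT2 rose by 2.70 ± 0.05 in SCR and IRF1 by 2.88 ± 0.07. In DKO, STAT2 (-0.02 ± 0.05, adjusted p = 0.869) did not pass, and IRF9 (0.49 ± 0.09) and IRF1 (0.36 ± 0.08) rose. All 20 other interferon-stimulated genes rose in SCR, STING and MAVS, with medians of 3.92, 4.51 and 2.71. In DKO 6 of them rose, with a median of 0.58 over the 20: OAS2 rose by 0.78 ± 0.07, while HERC5 (0.71 ± 0.22, adjusted p = 0.0896) and OAS3 (-0.08 ± 0.05, adjusted p = 0.314) did not pass. Under DMSO 18 of the 20 were lower in STING (background 5.47%) and 20 in DKO (background 15.3%) than in SCR, and 12 were higher in MAVS (background 3.98%). The ISRE letters were in 11 of the 15 of these genes that had a promoter window, in 0 of 11 other PARP genes and in 0 of 11 receptor and ISGF3 genes.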

How the data were processed

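The authors deposited whole-number read counts for each gene, 1 column per library, per the file headers. Per the submitters' processing notes, Trim Galore, cutadapt and Trimmomatic, STAR and featureCounts were used with GRCh38 (hg38); versions, order and strand setting are not given in the sources used here. Libraries were made from poly(A) RNA with a stranded QIAseq kit, per the labels' protocols. All 16 columns matched a library by its title, and 2 libraries form each of the 8 groups.

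Counts were analysed in R 4.3.3 with edgeR 4.0.16. The filterByExpr function, at a minimum count of 10 and a minimum total of 15, kept 17950 genes with at least 99.93% of each library's counts. Totals were scaled by TMM, and a quasi-likelihood model with 1 mean per group (8 residual degrees of freedom) gave 23 contrasts. Within each contrast, Benjamini-Hochberg adjustment was applied, and calls needed an adjusted p under 0.05. All adjusted p-values not named otherwise come from this two-sided test. Dividing the absolute log2 change by the root of its F statistic gave the standard error. The method was tested on simulated data. Replicates of a group differed by more than sampling noise (chi-square per gene 2.80 to 9.43). Residuals of same-numbered libraries had correlations of -0.05 to 0.09 over 28 pairs of groups, so the numbers were not taken as pairing the libraries. At these depths a library with 0 counts allows up to 3; such limits and intervals cover counting error only.

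The members and gene lists were chosen with earlier results of these data known. Named genes are all 9 members, STING1, MAVS and TTK, for each list up to 3 genes, by smallest adjusted p in SCR, the 3 genes most like each member in pattern, and the genes behind a count of 5 or fewer. Some genes this rule names are not reported here. Alternatives were DESeq2 1.42.0, relative log expression (RLE) scaling, no count filter, a fit on only the groups compared, a replicate block, a pseudocount in the ratios and leaving out each library. Promoter sequences are from RefSeq (GRCh38.p14).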

Additional observations from a re-analysis of the deposited data

Results flagged for a closer look

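The MPS1i response of a member was listed here when it differed between 2 lines by edgeR's interaction test (adjusted p under 0.05). The values are differences of log2 changes, the first line minus the second. Between the STING-labelled line and SCR, the difference was 0.30 for PARP9, -0.56 for PARP10, -0.26 for PARP14, 0.38 for DTX3L, -1.07 for APOL1 and -0.85 for APOL2. Between the MAVS-labelled line and SCR, the difference was -0.72 for PARP9, -1.12 for PARP10, -0.84 for PARP12, -0.84 for PARP14, -0.58 for DTX3L, -1.04 for APOL1, -1.05 for APOL2, -2.25 for APOL3 and -0.67 for APOL6. Between the DKO line and SCR, the difference was -2.29 for PARP9, -2.75 for PARP10, -2.23 for PARP12, -2.65 for PARP14, -1.99 for DTX3L, -2.56 for APOL1, -2.34 for APOL2, -5.39 for APOL3 and -2.05 for APOL6. Between the DKO and STING-labelled lines, the difference was -2.58 for PARP9, -2.19 for PARP10, -2.11 for PARP12, -2.39 for PARP14, -2.37 for DTX3L, -1.49 for APOL1, -1.49 for APOL2, -3.29 for APOL3 and -2.05 for APOL6. Between the DKO and MAVS-labelled lines, the difference was -1.57 for PARP9, -1.63 for PARP10, -1.40 for PARP12, -1.82 for PARP14, -1.40 for DTX3L, -1.52 for APOL1, -1.28 for APOL2, -3.14 for APOL3 and -1.38 for APOL6. Between the STING-labelled and MAVS-labelled lines, the difference was 1.01 for PARP9, 0.72 for PARP12, 0.58 for PARP14, 0.96 for DTX3L and 0.68 for APOL6.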

How the results depend on the processing

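Of 207 values (9 members in 23 contrasts), 177 passed the test, and none of these changed sign under any alternative run. A call changed under some alternative for 25 of the 207 and was lost for 20. No call changed for the MPS1i response in SCR, STING or MAVS. With only the groups compared in the fit, the members called for the MPS1i response in DKO numbered 1 instead of 3, and those lower in DKO than in STING under DMSO 2 instead of 5. Leaving out 1 library gave 1 to 3 and 3 to 5 calls for these. Over all genes, such fits called 1629 instead of 2648 genes, and 1983 instead of 3077. They called 1469 instead of 2897 for DKO against MAVS under DMSO and 1141 instead of 700 for the STING response minus the MAVS response. Without the count filter, 279 instead of 164 genes departed from additivity. The causes were not tested.

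With a replicate block, the number of members called was unchanged in every contrast except the departure from additivity, where it was 6 instead of 7 (PARP10, log2 -1.08, adjusted p = 0.0679). The PARP14 to PARP9 ratio change of -0.20 with a replicate block had p = 0.0703 by exact sign flips. DESeq2 did not call APOL3 lower than in MAVS under DMSO, in DKO (adjusted p = 0.0767) or in STING (adjusted p = 0.0766). APOL3 was not tested in 5 contrasts of the fits on only the groups compared, which for additivity would use all groups and was not run.

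The sign changed 12 times, in 8 values that had not passed the test, each time on leaving out 1 library. Over the libraries left out, the DKO response ran from -0.012 to 0.11 for APOL1 and from -0.000727 to 0.012 for DTX3L. Under DMSO, APOL2 ran from -0.18 to 0.016 in STING against SCR and from -0.052 to 0.14 in DKO against SCR, and APOL3 from -0.000667 to 0.87 in MAVS against SCR. The STING response minus that in SCR ran from -0.010 to 0.035 for APOL6, and the STING response minus that in MAVS from -0.41 to 0.57 for APOL3 and from -0.074 to 0.00995 for APOL1. Depth limits APOL3 most, with 2 to 20 counts in each library under DMSO.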
